A study of Homo sapiens with 9 samples.

Results

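The c-Jun N-terminal kinases (JNKs) are mitogen-activated protein kinases (MAPKs) that dual-specificity MAP2 kinases switch on in stressed cells and that phosphorylate, among other proteins, the transcription factor c-Jun. Jun proteins pair with one another, with Fos proteins or with ATF proteins through basic leucine zippers, and these pairs, called AP-1, bind short DNA elements known as the TRE (TGACTCA) and the CRE (TGACGTCA). In epithelial cells AP-1 is known for the rapid response to growth factors and stress, and for the control of proteases and adhesion genes. By symbol, 10 genes out of 23284 were taken for this description: the kinases MAPK8 (JNK1), MAPK9 (JNK2) and MAPK10 (JNK3), the Jun genes JUN, JUNB and JUND, the Fos genes FOS, FOSB and FOSL1 (FRA-1), and ATF3. All 10 genes stood on a single entry per file, were above 0 in all 9 samples and were tested in every comparison.

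RNA-Seq was performed on HT-29 (HT29), an established human colon cancer cell line, after 5 days with 5-Aza-deoxycytidine (5-Aza), a cytidine analog that is incorporated into DNA and traps the enzymes that methylate it. There were 3 groups of 3 separate dishes: 0 µM 5-Aza (control, DMSO vehicle alone), 5 µM 5-Aza and 10 µM 5-Aza. All dishes held the same line, so the p-values below cover the spread between dishes of one line. MAPK10 was one of the genes that the study picked from its own calls on these RNA samples for qRT-PCR, so its differences from the control are given as a description and it is left out of the counts of genes that passed the test against the control. On the same RNA, the study's qRT-PCR also measured MAPK10 higher at 5 µM than in the control.

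Expression was read as FPKM, a value of fragments per transcript length and library, which allows levels of different genes to be compared per length. The deposited FPKM values of a library summed to between 3.69e+09 and 5.91e+09 and were used as relative values. No symbol above 0 held an identical value in any of the 9 pairs of replicates. Among genes with a mean of at least 100000 FPKM, 69.2% were lower at 5 µM than in the control and 81.2% were lower at 10 µM. Relative to the other libraries, the typical gene was lower in 10 µM replicates 1 and 3 (median log2 ratio -0.26 and -0.22) than in 10 µM replicate 2 (0.08). Scaling each library by its median ratio therefore raised log2 fold changes by 0.04 for 5 µM vs. 0 µM, by 0.24 for 10 µM vs. 0 µM and by 0.20 for 10 µM vs. 5 µM. Setting all libraries to equal FPKM totals, a second scaling, raised them by a median of 0.29, 0.38 and 0.09. Of 10 colon epithelium markers, 10 were above 0 in every sample, with summed levels of 80810000 to 97190000 FPKM in the control, 33440000 to 37910000 at 5 µM and 26340000 to 46720000 at 10 µM. Of 14 markers of other cell types, 7 were above 0 in every sample, CD3E and CDH5 were listed at 0 in all 3 controls, and the summed level was 56070 to 74180 FPKM in the control, 108900 to 132300 at 5 µM and 93800 to 99800 at 10 µM. At 5 µM 2 colon markers were called upward (CDX1 and CEACAM5) and 2 downward (KRT8 and KRT18), and at 10 µM vs. 0 µM 0 upward (1 at an unadjusted p under 0.05, limma) and 2 downward (CDX2 and KRT20, with 4 downward after scaling). Of all tested genes, 14.1% were called higher and 2.17% lower at 5 µM, and 4.07% and 3.4% at 10 µM vs. 0 µM. From 5 µM to 10 µM, 1 colon marker was called downward (CEACAM5, 0 after scaling), beside 4.82% of all tested genes. In every treated sample the summed colon markers were lower, and the summed other markers higher, than in any control. Of the other markers, CD14 had the highest mean in the control (40510 FPKM, and 37790 at 5 µM), while COL1A1 went from a mean of 6567 to 37110 FPKM at 5 µM. At 5 µM 12 of the 14 were higher and 0 lower at an unadjusted p under 0.05 (limma). KRT8 and KRT18 made up 79.0% to 80.8% of the colon sum in the control, and the sum of the other 8 colon markers was 15920000 to 19590000 FPKM in the control, 11630000 to 13470000 at 5 µM and 7764000 to 12850000 at 10 µM. The part of these markers in the results below was not tested. In bulk RNA, fewer cells of a kind and less RNA per cell cannot be told apart.

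Because 5-Aza acts on methylated CG sites, the promoter sequences (RefSeq, GRCh38.p14, the 250 bases before each annotated start) were read first. Windows were found for 9 of the 10 genes, and FOSL1 had no entry. MAPK8 held 38 CG dinucleotides, the first MAPK9 window 37 and JUND 40, more than 96.7%, 96.0% and 97.8% of all 35116 windows, whose median was 11. JUNB held 27, FOS 25, FOSB 19 and JUN 14. The other 2 MAPK9 windows held 13 and 4, MAPK10 had 3 start sites with 8, 1 and 0, and the ATF3 windows held 4 and 0. DNA methylation itself was not analysed here. The stretches below hold, in capitals, the motif shared by a pair of genes whose log2 fold changes at 5 µM differed in sign. The first pair shares the CRE, TGACGTCA, present in 1.65% of all windows (both strands, the element being its own reverse complement). MAPK10 is shown at chr4:86360074-86360173 (minus strand, bases 120 to 21 before the start) and JUND at chr19:18281773-18281872 (minus strand, bases 250 to 151 before the start).
MAPK10: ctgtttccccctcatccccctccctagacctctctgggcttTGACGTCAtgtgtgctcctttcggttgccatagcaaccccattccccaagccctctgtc
JUND: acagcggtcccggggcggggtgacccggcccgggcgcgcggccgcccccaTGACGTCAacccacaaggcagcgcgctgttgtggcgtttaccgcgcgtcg
The second pair shares TGACATCA, the JUN-type variant of the TRE, which stands in 2.37% of windows on either strand. JUN is shown at chr1:58784068-58784167 (minus strand, bases 120 to 21) and ATF3, at the first of its 2 windows, at chr1:212565257-212565356 (plus strand, bases 150 to 51).
JUN: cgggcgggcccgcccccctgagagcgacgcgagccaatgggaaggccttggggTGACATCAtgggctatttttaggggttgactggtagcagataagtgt
ATF3: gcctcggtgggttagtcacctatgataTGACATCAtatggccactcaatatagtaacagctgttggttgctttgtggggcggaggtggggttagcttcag
The third pair, FOSB and FOS, shares a TATA box (TATAAA on the coding strand, in 6.8% of windows, a motif added after the sequences were read) in the last 100 bases before the start, at chr19:45467896-45467995 and chr14:75278728-75278827, both on the plus strand.
FOSB: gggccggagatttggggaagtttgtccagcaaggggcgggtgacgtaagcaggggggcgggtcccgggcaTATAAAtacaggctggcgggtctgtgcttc
FOS: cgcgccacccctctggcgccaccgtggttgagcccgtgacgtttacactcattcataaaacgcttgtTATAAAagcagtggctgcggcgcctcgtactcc
JUNB and the second ATF3 window also held TATAAA, the second MAPK10 window held the TRE TGACTCA (4.2% of windows, both strands) and the third MAPK10 window held TGACATCA. A serum response element CArG box, present in 1.16% of windows, was found in none of these windows. Sequence more than 250 bases before a start was not searched, so a CArG box further upstream would have been missed. A match describes letters in the sequence and does not show that a factor was bound.

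In control cells the order of the levels ran from JUND and JUNB, whose 3 replicates overlapped, through JUN, MAPK8, FOS, FOSL1 and ATF3, each of which overlapped the next, to MAPK9, FOSB and MAPK10, each below the one before it in every replicate. Mean control levels were 840500 FPKM for JUND, 278400 for JUN, 132800 for MAPK9, 27820 for FOSB and 4215 for MAPK10. MAPK10 stayed last and FOSB last but one at every dose. At 5 µM the means of FOSL1 and ATF3 stood above that of JUN, although ATF3 and JUN overlapped, whereas at 10 µM JUN stood above FOSL1 in every replicate.

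**Figure D1:**
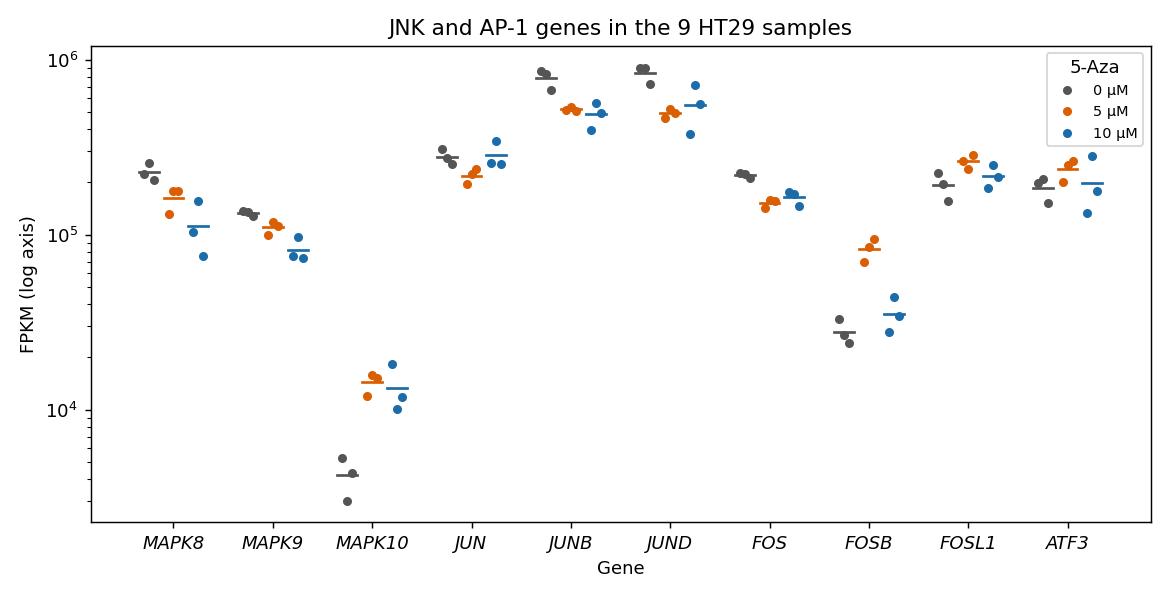
FPKM (log axis) of the 10 genes in the 9 samples, with points for replicates, short lines for group means and colors for the dose. FOSB stands apart at 5 µM, between 69378 and 93952 FPKM, and MAPK10 is higher in every treated sample than in any control.

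MAPK10 encodes JNK3, the kinase known chiefly from brain and heart, and it was the least abundant of the 10 genes. Its FPKM was 5316, 3017 and 4313 in the controls, 11990, 15816 and 15106 at 5 µM, and 18239, 10082 and 11728 at 10 µM 5-Aza. All 6 treated samples were above all 3 controls, and the treated groups overlapped each other. The log2 fold change was 1.79 (SE 0.28) for 5 µM vs. 0 µM and 1.65 (SE 0.38) for 10 µM vs. 0 µM, or 3.39-fold and 3.17-fold between the means. These 2 differences share the control samples. The 10 µM difference missed an adjusted p of 0.05 without 10 µM replicate 1 or 3 or any one control (0.0558 to 0.104, limma). From 5 µM to 10 µM the log2 difference was -0.14, with a 95% interval of -0.81 to 0.54, and turned to 0.07 after scaling.

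These levels rest on few fragments. Low FPKM values step in whole fragments, and the size of the step gave a rough estimate of 4.95 to 10.0 fragments per kilobase of MAPK10 transcript in the control libraries, 31.4 to 42.3 at 5 µM and 21.7 to 25.2 at 10 µM. The other 9 genes had at least 35.6 fragments per kilobase in every library. The annotated protein-coding transcripts of MAPK10 range from 440 to 8941 nucleotides, so the number of fragments behind a control value depends on the transcript. On the transcript that the annotation marks as canonical (8735 nucleotides), the estimate was 43.3 to 87.5 fragments in the control libraries. MAPK10 lies on chromosome 4 (GRCh37, 86911160 to 87515778, minus strand), and its exons overlap exons of PTPN13 and ARHGAP24 on the plus strand. The kit did not mark strand, so fragments in the shared exons could not be assigned. PTPN13 had a log2 fold change of -0.02 (SE 0.16, adjusted p = 0.919, limma) for 5 µM vs. 0 µM, and ARHGAP24 stayed at or under 955 FPKM in all samples. The 5 symbols whose log2 level followed MAPK10 most closely over the 9 samples, among 15277 symbols above 0 throughout, were ALG13 (Pearson r 0.984), C4orf21 (0.979), DYNC2H1 (0.978), DONSON (0.977) and ZNF519 (0.976). All 9 points come from the same 3 dose groups, and these values are a description.

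MAPK8 and MAPK9 encode JNK1 and JNK2, the broadly expressed JNKs, and both were lower in treated cells. MAPK8 (chromosome 10, 49514682 to 49647403, plus strand) was at 220673, 257797 and 205254 FPKM in the control, 131303, 176714 and 178205 at 5 µM, and 103250, 156274 and 75605 at 10 µM. Neither treated group overlapped the control, while the treated groups overlapped each other. Its log2 fold change was -0.50 (SE 0.15, adjusted p = 0.0394 in limma, Benjamini-Hochberg) for 5 µM vs. 0 µM and -1.09 (SE 0.26, adjusted p = 0.0345) for 10 µM vs. 0 µM. The first value missed 0.05 without 5 µM replicate 1, 2 or 3 or control replicate 1 or 2 (adjusted p 0.0648 to 0.111). The second passed the 2-fold limit as deposited but not after scaling, where it was -0.84 (adjusted p = 0.0250), nor without control replicate 1, 2 or 3, or 10 µM replicate 1 or 3 (adjusted p 0.0730 to 0.126). MAPK9 (chromosome 5, 179660143 to 179719099, minus strand) was at 136358, 134164 and 127866 FPKM in the control, 99515, 118372 and 112112 at 5 µM, and 75904, 97137 and 73081 at 10 µM. Without overlap between the 3 groups, the values stepped downward with the dose. MAPK9 fell by 0.27 on the log2 scale (SE 0.09, adjusted p = 0.0443) at 5 µM and by 0.71 (SE 0.15, adjusted p = 0.0246) at 10 µM relative to the control. The 5 µM value missed 0.05 without 5 µM replicate 1 or 3 or any one control (adjusted p 0.0652 to 0.125), and the 10 µM value without 10 µM replicate 1 or 3 or any one control (adjusted p 0.0697 to 0.109). With equal totals, no difference of the pair passed the test, with MAPK8 at -0.21 (adjusted p = 0.254) and MAPK9 at 0.01 (adjusted p = 0.913) for 5 µM vs. 0 µM, and MAPK8 at -0.71 (adjusted p = 0.0525) and MAPK9 at -0.33 (adjusted p = 0.0719) for 10 µM vs. 0 µM.

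Shares within a library do not depend on how that library was scaled. MAPK10 made up 1.47%, 0.764% and 1.28% of the summed FPKM of the 3 JNK genes in the controls, 4.94%, 5.09% and 4.95% at 5 µM, and 9.24%, 3.83% and 7.31% at 10 µM. At 5 µM the values were nearly equal and the 10 µM values spread widely, with every treated sample above every control. MAPK8 went from 62.3% ± 2.54 (SD, n = 3) in the control to 56.4% ± 2.17 at 5 µM and 52.9% ± 6.11 at 10 µM, and neither treated group overlapped the control (exact permutation test, 2-sided p = 0.1, the smallest that 3 against 3 allows). The MAPK9 share was 36.5% ± 2.20, 38.6% ± 2.19 and 40.3% ± 4.63, and its groups overlapped. MAPK8 and MAPK9 together made up the rest of the JNK transcript, and MAPK8 exceeded MAPK9 in every sample.

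JUN, JUNB and JUND encode the Jun proteins. c-Jun is the best known JNK substrate, JunB a partner that often opposes it, and JunD a member abundant in resting cells. JUN (chromosome 1, 59242517 to 59249720, minus strand) was at 307886, 274207 and 253250 FPKM in the control, 195149, 220700 and 235856 at 5 µM, and 258263, 340654 and 254552 at 10 µM. It was lower at 5 µM than in both other groups, without overlap, while the control and 10 µM groups overlapped. The log2 fold change was -0.36 (SE 0.10, adjusted p = 0.0372) for 5 µM vs. 0 µM, and missed 0.05 without 5 µM replicate 1, 2 or 3 or control replicate 1 or 2 (adjusted p 0.0520 to 0.102). It was 0.02 for 10 µM vs. 0 µM (95% interval -0.35 to 0.39), or 0.26 after scaling. With equal totals JUN was at -0.07 (adjusted p = 0.506) for 5 µM vs. 0 µM and at 0.40 (adjusted p = 0.0247) for 10 µM vs. 0 µM. Between the doses JUN was higher at 10 µM by 0.38 (SE 0.16, adjusted p = 0.196), and by 0.58 after scaling (SE 0.09, adjusted p = 0.0150).

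JUNB (chromosome 19, 12902300 to 12904129, plus strand) was at 862409, 830444 and 673882 FPKM in the control, 512563, 538980 and 510916 at 5 µM, and 396737, 564881 and 498433 at 10 µM. JUND (chromosome 19, 18390504 to 18392432, minus strand) was at 901018, 896324 and 724107 FPKM in the control, 465435, 521005 and 497657 at 5 µM, and 377285, 712810 and 559527 at 10 µM. Both genes were below the control in every treated sample, and for both the treated groups overlapped. JUNB fell by 0.59 (SE 0.10, adjusted p = 0.00595) at 5 µM and by 0.70 (SE 0.18, adjusted p = 0.0417) at 10 µM, the latter missing 0.05 without 10 µM replicate 1 or 3 or any one control (adjusted p 0.0679 to 0.158). JUND fell by 0.76 (SE 0.10, adjusted p = 0.00227) at 5 µM, while its log2 fold change of -0.65 at 10 µM did not pass the test (adjusted p = 0.102). None of these differences reached 2-fold. With equal totals the log2 fold changes for 5 µM vs. 0 µM and 10 µM vs. 0 µM were -0.30 (adjusted p = 0.0115) and -0.32 (adjusted p = 0.0484) for JUNB, and -0.47 (adjusted p = 0.00237) and -0.27 (adjusted p = 0.197) for JUND. JUNB shares exon sequence with HOOK2 on the opposite strand, which had a log2 fold change of 0.10 (SE 0.11, adjusted p = 0.467) at 5 µM. Within the Jun family, the JUN share was 14.9%, 13.7% and 15.3% in the control, 16.6%, 17.2% and 19.0% at 5 µM, and 25.0%, 21.1% and 19.4% at the higher dose. The 3 groups did not overlap and stepped upward with the dose (exact permutation 2-sided p = 0.1 for each pair). The summed FPKM of the family was 1651000 to 2071000 in the control, 1173000 to 1281000 at 5 µM and 1032000 to 1618000 at 10 µM.

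The Fos genes moved in different directions. FOS encodes c-Fos, the classic immediate-early partner of c-Jun, FOSB a close relative with a truncated splice form that lasts longer, and FOSL1 encodes FRA-1, which is common in invasive carcinoma cells. FOSB (chromosome 19, 45971253 to 45978437, plus strand) was at 32736, 26782 and 23948 FPKM in the control, 69378, 84430 and 93952 at 5 µM, and 27778, 43785 and 34201 at 10 µM. All 5 µM replicates were above all others, and the control and 10 µM groups overlapped. FOSB rose 2.97-fold between the means at 5 µM, a log2 fold change of 1.57 (SE 0.17, adjusted p = 0.000923). From 5 µM to 10 µM it fell by 1.24 (SE 0.21, adjusted p = 0.0182), and by 1.04 after scaling (SE 0.15, adjusted p = 0.0109). Without 5 µM replicate 1, 2 or 3 this fall no longer passed the test (adjusted p 0.0556 to 0.111). For 10 µM vs. 0 µM the log2 fold change was 0.33 (95% interval -0.21 to 0.87, adjusted p = 0.338), and 0.71 with equal totals (adjusted p = 0.0243).

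FOS (chromosome 14, 75745529 to 75748933, plus strand) was at 224622, 222758 and 211675 FPKM in the control, 141617, 157434 and 156446 at 5 µM, and 175505, 170788 and 145367 at 10 µM. Every treated sample was below every control. FOS fell by 0.53 (SE 0.07, adjusted p = 0.00180) at 5 µM, and its log2 fold change of -0.43 at 10 µM missed the limit (adjusted p = 0.0564), as did the scaled value of -0.19 (adjusted p = 0.288). With equal totals FOS was at -0.25 (adjusted p = 0.0249) and -0.05 (adjusted p = 0.837) in these comparisons. FOSL1 (chromosome 11, 65659520 to 65668044, minus strand) was at 225358, 194029 and 155610 FPKM in the control, 263407, 237532 and 285630 at 5 µM, and 183504, 248686 and 213133 at 10 µM. All 5 µM values were above all controls, and the 10 µM replicates overlapped both groups. FOSL1 rose by 0.46 on the log2 scale (SE 0.15, adjusted p = 0.0486) at 5 µM, a difference that missed 0.05 without 5 µM replicate 1, 2 or 3 or control replicate 2 or 3 (adjusted p 0.0743 to 0.155), and for 10 µM vs. 0 µM the value was 0.17 (95% interval -0.25 to 0.59). With equal totals FOSL1 was at 0.75 (adjusted p = 0.00396) and 0.55 (adjusted p = 0.0162).

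The make-up of the Fos family followed these differences. FOSB was 6.78%, 6.04% and 6.12% of the family's summed FPKM in the control, 14.6%, 17.6% and 17.5% at 5 µM, and 7.18%, 9.45% and 8.71% at 10 µM. None of the 3 groups overlapped another, and 10 µM lay between the control and 5 µM (exact permutation 2-sided p = 0.1 for each pair). The FOS share was 50.3% ± 3.79 (SD, n = 3), 30.6% ± 1.95 and 39.8% ± 4.87 at 0 µM, 5 µM and 10 µM, and FOSL1 had the highest mean share of the 3 genes at both doses, with 52.8% ± 3.02 and 51.8% ± 3.78 against 43.4% ± 3.47 in the control. The summed FPKM of the family overlapped between each treated group and the control, at 391200 to 482700 in the control, 474400 to 536000 at 5 µM and 386800 to 463300 at 10 µM.

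**Figure D2:**
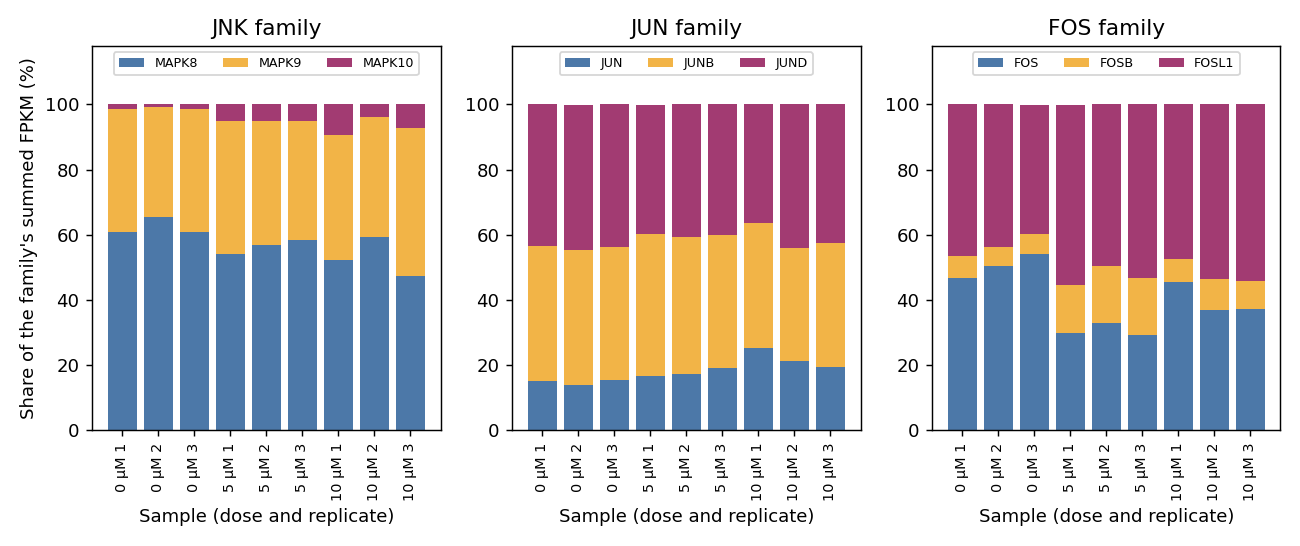
Share (%) of each gene in the summed FPKM of its family, in stacked bars for the 9 samples (dose and replicate). The MAPK10 band widens from 1.47% or less to at least 3.83%, the JUN band widens with the dose, and the FOSB band is widest at 5 µM (14.6% to 17.6%).

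ATF3 encodes a stress-induced leucine zipper protein that pairs with Jun proteins. ATF3 (chromosome 1, 212738676 to 212794119, plus strand) was at 196792, 207125 and 151508 FPKM in the control, 199835, 248621 and 264087 at 5 µM, and 132213, 280734 and 177720 at 10 µM. Its groups overlapped in each comparison, and the 10 µM replicates spanned 1.09 on the log2 scale. Its log2 fold change for 5 µM vs. 0 µM was 0.36 (SE 0.16, adjusted p = 0.116), 0.40 after scaling (adjusted p = 0.0463) and 0.65 with equal totals (adjusted p = 0.00882). For 10 µM vs. 0 µM it was 0.03 (95% interval -0.61 to 0.68), and 0.41 with equal totals (adjusted p = 0.139). The ratio of ATF3 to JUN, whose promoters share the element shown above, was 0.639, 0.755 and 0.598 in the control, 1.02, 1.13 and 1.12 at 5 µM, and 0.512, 0.824 and 0.698 at the higher dose, with the 5 µM replicates above all others.

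A gene was called where it passed both an adjusted p of at most 0.05 and a change over 2-fold, and MAPK10 is left out of the counts against the control. For 5 µM vs. 0 µM, 1 of the 9 others was called upward (FOSB) and 0 downward, where 14.1% of 20051 tested genes were called higher and 2.17% lower. At an adjusted p of at most 0.05 alone 2 of the 9 passed upward and 6 downward (the same numbers at an unadjusted p under 0.05), where 21.3% of all tested genes passed higher and 17.7% lower. The groups did not overlap for 8 of the 9, beside 52.7% of all tested genes. With equal totals 3 passed upward (FOSB, FOSL1 and ATF3) and 3 downward (JUNB, JUND and FOS). That scaling raised log2 fold changes by a median of 0.29. Of all genes called at 5 µM, 95.5% were then higher, against 86.6% as deposited. The share of all tested genes passing an adjusted p of 0.05 alone was not computed with equal totals, so those counts have none beside them. The 5 µM differences of MAPK8, MAPK9, JUN and FOSL1 also missed 0.05 without the filter on low values, without the intensity trend and in a single fit of all 9 samples. For 10 µM vs. 0 µM, 0 of the 9 were called upward (0 also at an unadjusted p under 0.05, limma) and 1 downward (MAPK8), where 4.07% of 18928 genes were called higher and 3.4% lower. At an adjusted p of at most 0.05 alone 0 passed upward and 3 downward by limma, beside 5.39% and 9.71% of all tested genes, and the groups did not overlap for 5 of the 9, beside 41.1%. With equal totals the direction of this count turned, with 3 upward (JUN, FOSB and FOSL1) and 1 downward (JUNB). The 10 µM differences of MAPK8, MAPK9 and JUNB also missed 0.05 without the filter on low values and without the intensity trend. The MAPK8 call was lost after either scaling and without 10 µM replicate 1 or 3 or any one control. For 10 µM vs. 5 µM, FOSB was called downward and 0 of the 10 upward (1 upward, JUN, and 2 downward at an unadjusted p under 0.05), where 0.129% of 20085 genes were called higher and 4.82% lower. At an adjusted p of at most 0.05 alone 0 passed upward and 1 downward by limma, beside 0.319% and 5.85% of all tested genes, and the groups did not overlap for 3 of the 10, beside 29.6%. JUN passed an adjusted p of 0.05 in this comparison after either scaling (0.47 with equal totals, adjusted p = 0.0450). Of all genes called for 10 µM vs. 0 µM, 54.5% were higher as deposited, 79.8% after median-of-ratios scaling and 89.3% with equal totals. The median log2 fold change of the 10 genes was -0.32, -0.20 and -0.21 in these 3 comparisons, beside 0.14, -0.15 and -0.31 over all tested genes and -0.19, -0.39 and -0.19 over genes with a mean of at least 100000 FPKM, a level that 8 of the 10 exceeded in the control. The 3 comparisons share their samples in pairs.

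**Figure D3:**
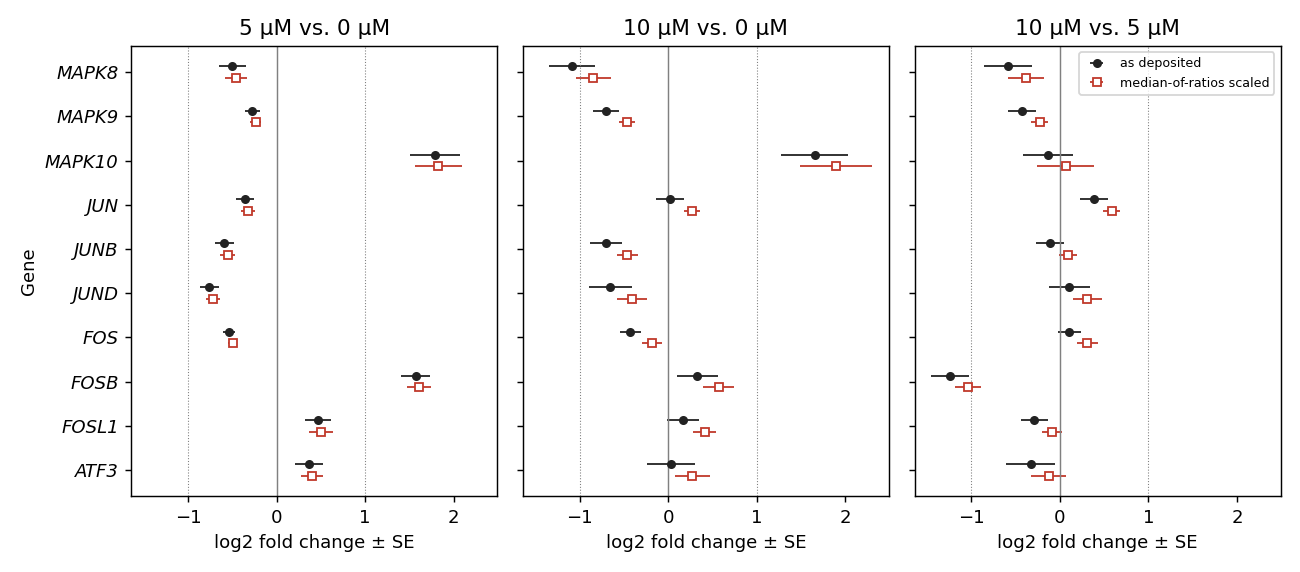
Log2 fold change (± SE, on log2(FPKM + 1)) of each gene in the 3 comparisons, as deposited (filled circles) and after median-of-ratios scaling (open squares), with dotted lines at a 2-fold change. MAPK10 and FOSB lie beyond 2-fold at 5 µM, MAPK8 crosses that line at 10 µM as deposited but not after scaling (-0.84), and FOSB lies beyond it downward from 5 µM to 10 µM.

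Of 27 genes around the JNKs, 4 were called upward and 0 downward at 5 µM, beside the 14.1% and 2.17% of all tested genes. Of 12 upstream kinases (MAP2 and MAP3 kinases), 1 was called upward and 0 downward at 5 µM, with a median log2 fold change of -0.15. Within 2-fold, 1 more rose and 4 fell at an adjusted p of at most 0.05. That gene, MAP3K12, the dual leucine zipper kinase known from neurons, was at 9497, 9432 and 13479 FPKM in the control, 24777, 24571 and 26994 at 5 µM, and 33650, 25669 and 18741 at 10 µM. It rose by 1.26 (SE 0.19, adjusted p = 0.00301) at 5 µM and by 1.25 (SE 0.30, adjusted p = 0.0343) at 10 µM, where it was the only kinase of the list called upward (2 after scaling), the latter missing 0.05 without 10 µM replicate 1 or 3 or any one control (adjusted p 0.0525 to 0.122). Of 4 JNK scaffolds, which hold the kinases of the cascade together, MAPK8IP1 rose by 1.79 (SE 0.24, adjusted p = 0.00205) and MAPK8IP2 by 1.13 (SE 0.31, adjusted p = 0.0311) at 5 µM, and MAPK8IP1 by 1.31 (SE 0.35, adjusted p = 0.0454) at 10 µM, while 0 were called downward (0 also at an unadjusted p under 0.05). MAPK8IP2 missed 0.05 without 5 µM replicate 1 or 3 or control replicate 2 or 3 (adjusted p 0.0507 to 0.0894), and MAPK8IP1 at 10 µM without any one of the 6 samples (adjusted p 0.0590 to 0.126). Of 4 phosphatases that act on JNKs, DUSP10 rose by 1.30 (SE 0.42, adjusted p = 0.0499) at 5 µM and 0 were called downward (1 at an unadjusted p under 0.05). DUSP10 missed 0.05 without 5 µM replicate 1, 2 or 3 or control replicate 1 or 2 (adjusted p 0.0979 to 0.156). Of 7 other MAP kinases, 0 were called by limma in either direction at either dose (4 were higher and 1 lower at 5 µM, and 2 higher and 2 lower at 10 µM, at an unadjusted p under 0.05), while 2 were called upward at 10 µM after scaling. The most abundant were MAPK13, with a log2 fold change of 0.01 (SE 0.12), and MAPK3, with 0.25 (SE 0.09), at 5 µM. From 5 µM to 10 µM, 0 genes of these 4 lists were called by limma in either direction, and at an unadjusted p under 0.05 there were 0 higher and, in the order given, 2, 2, 1 and 3 lower.

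Among 7 other leucine zipper genes that can join AP-1, 3 were called upward and 0 downward at 5 µM, beside 14.1% and 2.17% of all tested genes. The 3 called genes all came from the BATF family, which is known from immune cells. At an unadjusted p under 0.05, 3 genes of the list were lower. One of them, JDP2, fell by 0.92 (SE 0.11, adjusted p = 0.00125, limma), short of 2-fold. BATF was at 2099, 2780 and 1966 FPKM in the control and 11342, 10100 and 6932 at 5 µM, a rise of 2.04 (SE 0.31, adjusted p = 0.00326). BATF2 rose by 1.90 (SE 0.26, adjusted p = 0.00206), from 12601 to 25323 FPKM in the control to 59350 to 69240 at 5 µM. BATF3 was listed at 0 in all controls, so that it could only be higher, and at 2065, 1738 and 1930 FPKM at 5 µM. These values rest on few fragments, an estimated 5.4 per kilobase at most for BATF3 at 5 µM. The control values of BATF rest on 4.56 per kilobase at most. At 10 µM 0 of the 7 were called by limma against either group (4 lower against the control and 2 against 5 µM at an unadjusted p under 0.05). Of 10 immediate-early genes, which are switched on within minutes of a stimulus, the nuclear receptors NR4A1 (1.14, SE 0.12, adjusted p = 0.000854) and NR4A2 (1.04, SE 0.12, adjusted p = 0.00127) rose over 2-fold at 5 µM and 0 of the list were called downward (0 also at an unadjusted p under 0.05), with a list median of 0.59. NR4A2 fell under 2-fold without 5 µM replicate 2 or control replicate 3. At 10 µM 0 of the 10 were called by limma against either group (at an unadjusted p under 0.05, 2 higher and 2 lower against the control, and 5 lower against 5 µM). Of 4 genes of the ATF4 stress response, 0 were called as deposited in any comparison (at an unadjusted p under 0.05, 3 at 5 µM and 2 at 10 µM against the control, and 0 between the doses). Its most abundant genes, ATF4 and TRIB3, had log2 fold changes of -0.42 (SE 0.13, or -0.13 with equal totals) and -0.64 (SE 0.09) at 5 µM, whereas DDIT3, which encodes the stress factor CHOP, rose by 0.94 (SE 0.11, adjusted p = 0.00109).

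Of 13 known AP-1 target genes, 6 were called upward and 1 downward at 5 µM, where 14.1% and 2.17% of all tested genes were called, with a list median of 1.59 beside 0.14 over all tested genes. The collagenase gene MMP1 was at 1656, 2092 and 1939 FPKM in the control, 9376, 18098 and 16246 at 5 µM, and 8794, 9435 and 5038 at 10 µM. Every treated sample was above every control, and the treated groups overlapped. At 5 µM MMP1 rose by 2.89 (SE 0.33, adjusted p = 0.00115) and the urokinase gene PLAU by 2.09 (SE 0.27, adjusted p = 0.00177). MMP9, a gelatinase gene, was listed at 0 in all controls and all 10 µM samples and at 1194, 157 and 279 FPKM at 5 µM. It is counted among the 6 upward calls, although from 0 in the control it could only be higher at 5 µM. These values rest on an estimated 3.12 fragments per kilobase at most, and with a pseudocount of 1000 the MMP9 call was lost (adjusted p = 0.102). IL8, which encodes a chemokine and was also among the genes that the study picked on these samples, was at 7666, 10832 and 9574 FPKM in the control, 31233, 35104 and 34160 at 5 µM, and 24933, 49877 and 30336 at 10 µM, with a log2 fold change of 1.85 (SE 0.17) at 5 µM. Unlike MAPK10, IL8 was kept in the counts of targets called upward at both doses. Those counts thus include a gene picked from calls on the same RNA samples. CD44, a hyaluronan receptor and the only target called downward at 5 µM, fell by 1.25 (SE 0.10, adjusted p = 0.000380), or by 0.96 and thus under 2-fold with equal totals. At 10 µM vs. 0 µM, 2 of 11 tested targets were called upward by limma (MMP1 and IL8, with 4 called after scaling) and 0 downward, and at 10 µM vs. 5 µM 1 of 13 was called downward (MMP9) and 0 upward. At an unadjusted p under 0.05, 2 were lower in the first of these comparisons and 1 was higher in the second. Of the markers of other cell types, 9 of 14 were called upward at 5 µM and 1 of 14 at 10 µM vs. 0 µM (2 after scaling), beside 14.1% and 4.07% of all tested genes. From 5 µM to 10 µM, 3 of 14 were called downward, beside 4.82%. CD3E and CDH5, at 0 in all controls, could only be higher at 5 µM. They are among the called markers and rest there on an estimated 2.55 and 1.06 fragments per kilobase at most. Their part in the values of these lists was not tested.

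**Figure D4:**
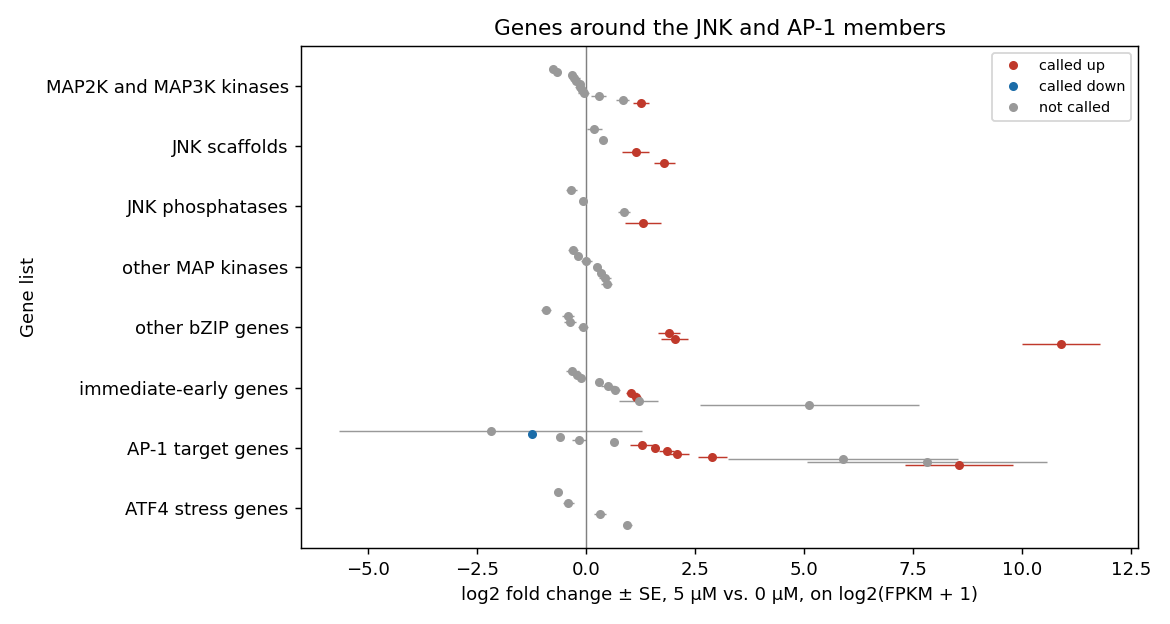
Log2 fold change (± SE) for 5 µM vs. 0 µM of each gene in 8 lists around the JNK and AP-1 genes, colored by whether it was called. Most kinase genes lie near 0, and the AP-1 targets that were above 0 in all controls reach 2.89 for MMP1, while values above 5 belong to genes listed at 0 in at least 1 control and carry no fold.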

How the data were processed

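Paired-end 100 bp libraries of mRNA from 9 HT-29 dishes were read. The authors trimmed low-quality reads (FASTX-Toolkit), used TopHat for alignment against hg19 and Cufflinks for FPKM, and the deposited files hold these FPKM values per gene, without counts. FPKM values of repeated symbols were summed. For each pair of groups, log2(FPKM + 1) of symbols reaching 10 in at least 1 sample was compared with limma 3.58.1 under R 4.3.3 (lmFit, eBayes with trend), with Benjamini-Hochberg adjustment over all tested symbols, at an adjusted p of at most 0.05 and over 2-fold. The count model planned for raw counts was not needed. The fit was tested on simulated data. Fragments were estimated from whole-fragment steps of low values, calibrated on 127 single-transcript genes of 1000 to 5000 nucleotides, of which 61.4% lay within 15% of the median, and cover counting error only. Positions are from GENCODE 44 on GRCh37.

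The 10 genes, the lists and the motifs were chosen with earlier results of these data known. From each list, at most 4 called genes with the largest change at 5 µM are named, or else the 2 most abundant. CD3E, CDH5, CDX2, KRT20, DDIT3, CD44 and JDP2 were named after their values were seen. Of the AP-1 targets, 1 gene is not reported here. Alternatives were other pseudocounts, filters, thresholds, scalings, fits and each replicate left out.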

Additional observations from a re-analysis of the deposited data

How the results depend on the processing

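For 5 µM vs. 0 µM, 2 of the 10 genes, MAPK10 included, passed in 16 of 18 alternatives, 9 passed without the fold limit and 0 in limma's treat against 2-fold. For 10 µM vs. 0 µM (2 passed), 4 passed without the fold limit, 1 after median-of-ratios scaling, 1 with equal totals, and 0 without the filter on low values, without the intensity trend and under treat, with 0 to 2 when a replicate was left out. For 10 µM vs. 5 µM (1 passed), 0 passed without the filter, without the trend and under treat, and 0 to 1 when a replicate was left out. The following log2 fold changes turned direction, of which the MAPK9 fall had passed an adjusted p of 0.05: MAPK9 with equal totals (0.012) and MAPK13 with a replicate left out (-0.11 to 0.113) for 5 µM vs. 0 µM, JUN (-0.11 to 0.10) and ATF3 (-0.26 to 0.28) for 10 µM vs. 0 µM when a replicate was left out, and for 10 µM vs. 5 µM MAPK10 (0.0663 after median-of-ratios scaling, -0.39 to 0.0424 with a replicate left out), JUNB (0.0903, and -0.23 to 0.0273) and JUND (-0.11 to 0.35 with a replicate left out). With the replicate number as a block, 2, 2 and 1 of the 10 genes passed, as without it, and over all genes 2967, 1194 and 418 passed in place of 3254, 1415 and 995. Deviations from the group means of samples with the same number correlated at -0.31 to 0.22, and those of different numbers at -0.28 to 0.21. These ranges showed no sign that the numbers paired the dishes, although with 3 replicates per group a weak pairing could have been missed. The control level of MAPK10 rests on few fragments, and the part of counting error in its spread was not tested.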
